A study of Homo sapiens with 4 samples.

Results

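The E-boxes described here were the cytosines of the hexamer CACGTG that lay more than 5 kb and at most 100 kb from the nearest transcription start site (TSS) in chromatin precipitated with Flag-tagged BMAL1 and CLOCK. They were picked by that distance alone, as the deposited table gives it, and each was 1 cytosine on 1 strand. The library listed 4353 E-box cytosines, of which 2338 were in this range, 332 lay within 5 kb and 1683 lay beyond 100 kb. Together the 6 tables of the series held 15177 distinct sites. BisChIP-seq, the assay used, is bisulfite sequencing of immunoprecipitated DNA, in which a methylated cytosine is still read as C and an unmethylated cytosine is read as T. The study asked whether BMAL1-CLOCK and the glucocorticoid receptor (GR) bind sites with methylated non-CpG cytosines inside cells.

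The host was HEK-293T, an established cell line of human embryonic kidney origin. The cells of the BMAL1-CLOCK groups were co-transfected with BMAL1-pCMV14, CLOCK-pCMV14 and DNMT3A-pLX304 and received no further treatment. Those of the GR groups carried GR-pCMV14 and DNMT3A-pLX304, and were given 4 nM dexamethasone, the ligand that moves GR into the nucleus, 24 h after transfection. All 4 groups therefore overexpressed the methyltransferase DNMT3A along with the factor, and no group without it was analysed here. In each pair 1 group was precipitated with anti-Flag antibody, which binds the tag of the transfected factor, and the other with non-specific IgG. Each group was 1 library, merged from 2 sequencing runs, so no value has a replicate error. Every test below ran over sites and compares regions or libraries, not conditions. The intervals cover counting error only.

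BMAL1 and CLOCK are basic helix-loop-helix PAS proteins that form a heterodimer, bind E-boxes and switch on the genes of the circadian clock, among them those of their own repressors. Cytosine methylation in human somatic cells is found mostly at CpG, and methylation in other contexts, which DNMT3A can place, is usually low. The E-box holds a CpG at its centre and a non-CpG cytosine at each end, and the end cytosine was the one counted.

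The sequence that all members shared is shown with the measured cytosine in capitals, counted as position 1 of 6 from the 5′ end of its own strand.
E-box: Cacgtg
The hexamer is a palindrome, so 1 E-box offers a cytosine on each strand, with the minus-strand one 5 bp further along the chromosome. All 4353 rows of the table carried this hexamer. Positions are those of the deposited table in build hg18. Whether a site lies in an exon, an intron or between genes was not looked up, since no hg18 annotation was used here.

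Methylated reads were rare at these E-boxes. Of 11355 reads over the 2338 sites, 132 were methylated, a pooled level of 1.16% (exact 95% interval 0.974 to 1.38%). Unmethylated cytosines that bisulfite leaves unconverted are also counted as methylated. No conversion rate was used here, so their part in this level was not tested. No methylated read was seen at 2212 sites (94.6%, exact 95% interval 93.6 to 95.5%). The mean level over sites was 1.13% ± 4.92 (SD, n = 2338 sites). At least 1 methylated read was present at 126 sites (5.39%, exact 95% interval 4.51 to 6.38%), against 5.56% of all E-boxes of the library. Of these 126 sites, 121 had a single methylated read, 4 had 2 and 1 had 3.

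The levels followed from how few reads there were. Among sites with a single methylated read, 60 had 4 reads and so a level of 25%, 25 had 5 reads, 15 had 6 and 9 had 7. A level of 25% or above was reached by 62 sites (2.65%), against 2.71% of all E-boxes, and 60 of the 62 were the sites with 1 of 4 reads. No member reached 50% (0 of 2338, which allows a share of up to 0.128%), against 0.115% of all E-boxes of the library. The highest level was 40%, at 2 sites with 2 methylated of 5 reads. The limit of 3 counts, used here for the share of 0, is too rough for a site with 4 reads. Even with 4 unmethylated reads a wide range of levels stays possible, so single sites were read only coarsely. The plot of level against distance shows the separate steps that these small read numbers leave.

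**Figure D1:**
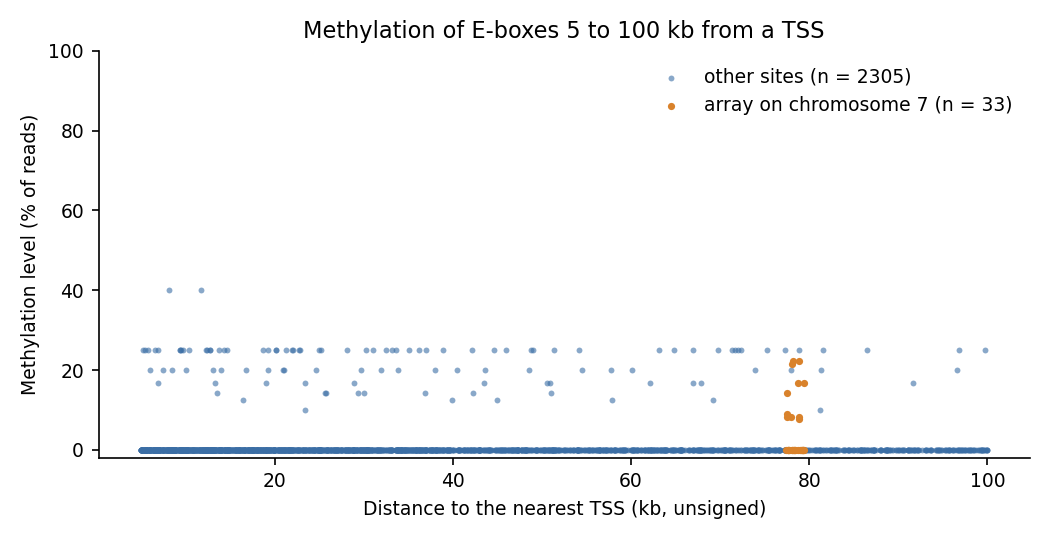
Methylation level of each E-box (vertical axis, % of reads) against its unsigned distance to the nearest TSS (horizontal axis, kb), with 1 point per cytosine. Of the 2338 sites 2212 lie at 0, 60 more lie at 25% with 1 of 4 reads, none lies above 40%, and the 33 sites of the array on chromosome 7 stand close together near 78 kb.

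No single member passed a test against the background of the table. Each site was set against the pooled level of all 4353 E-boxes, 1.23%, by a one-sided exact binomial test with Benjamini-Hochberg adjustment over the whole table. By this test 2 sites of the table passed (0.0459%), both beyond 100 kb, and 0 members did. An unadjusted p under 0.05 was found at 65 of the 2338 members and at 121 of all 4353 E-boxes of the library. Of those 65, 60 were the sites with 1 of 4 reads, whose p was 0.0483. The E-boxes with 2 of 4 reads methylated, all outside the range, had an adjusted p of 0.649 in this binomial test. At 4 reads a level of 50% was thus too low to pass, so the lack of calls says little about such sites. The smallest p of a member in the binomial test was 6.13e-04, with an adjusted p of 0.649. It belonged to a site on chromosome 7 with 3 methylated of 14 reads, described below with its neighbours.

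The members with the highest levels were scattered over the genome. The minus-strand cytosine at position 20640066 of chromosome 17, 8091 bp from the TSS of CR620692, had 2 of 5 reads methylated. The plus-strand cytosine at position 113297713 of chromosome 4, 11712 bp from the TSS of C4orf32 (now FAM241A), also had 2 of 5. Both gave p = 0.00148 and an adjusted p of 0.715 in the exact binomial test. Next in the order of levels came sites with 1 of 4 reads, such as those nearest to HNRNPR, which encodes an RNA-binding protein (42134 bp), and to the zinc finger gene ZSCAN20 (71962 bp). These are 2 of the 60 members with that level, and the order among them followed chromosome and position only.

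At the other end, the most deeply read E-boxes outside chromosome 7's array had no methylated read. The deepest member, at position 101990778 of chromosome 7 and 7427 bp from the TSS of SPDYE2, was unmethylated in all of its 21 reads. SPDYE2 belongs to a family of near-identical copies, so reads placed there may come from a paralog. The site 10158 bp from FAM89A had 0 of 14 reads methylated. Those nearest to SCYL3, a pseudokinase gene, and NOBOX, an oocyte homeobox gene, had 0 of 13 each. Another 2, nearest to UNQ151 and to TADA1L (now TADA1), which encodes a subunit of the SAGA coactivator complex, had 0 of 12 each. The other 4 of the 10 deepest members lay in the array. The last places were shared by 8 members with 12 reads, of which 3, in the array, had 1 methylated read each and the other 5 had none.

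Within the range, the share of methylated reads barely moved with distance. From 5 to 10 kb, 15 of 1408 reads were methylated (1.07%), and 14 of 287 sites had a methylated read (4.88%). From 10 to 25 kb the pooled level was 1.05%, with a methylated read at 33 of 677 sites (4.87%). From 25 to 50 kb it was again 1.05%, with 33 of 659 sites (5.01%). From 50 to 100 kb, 50 of 3545 reads were methylated (1.41%), and 46 of 715 sites had one (6.43%). The last band was the highest of the 4, and 15 of its methylated reads came from the array described next. Without the 33 array sites it held 35 of 3276 reads (1.07%) and 35 of 682 sites (5.13%). Sites up to 50 kb and those beyond did not differ past the threshold, with 80 of 1623 (4.93%) against 46 of 715 (6.43%), a difference of -1.50 percentage points (95% interval -3.79 to 0.546). Fisher's exact test, two-sided as throughout, gave p = 0.137 for it (adjusted p = 0.236 over the 17 share comparisons made), and p = 0.834 without the array. In bins of 1 kb, which held 7 to 65 sites each, 36 of 95 bins had no methylated read at all. Among the 45 bins with at least 20 sites the highest mean level was 5.37%, from 78 to 79 kb, where 15 of the 23 sites belonged to the array.

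**Figure D2:**
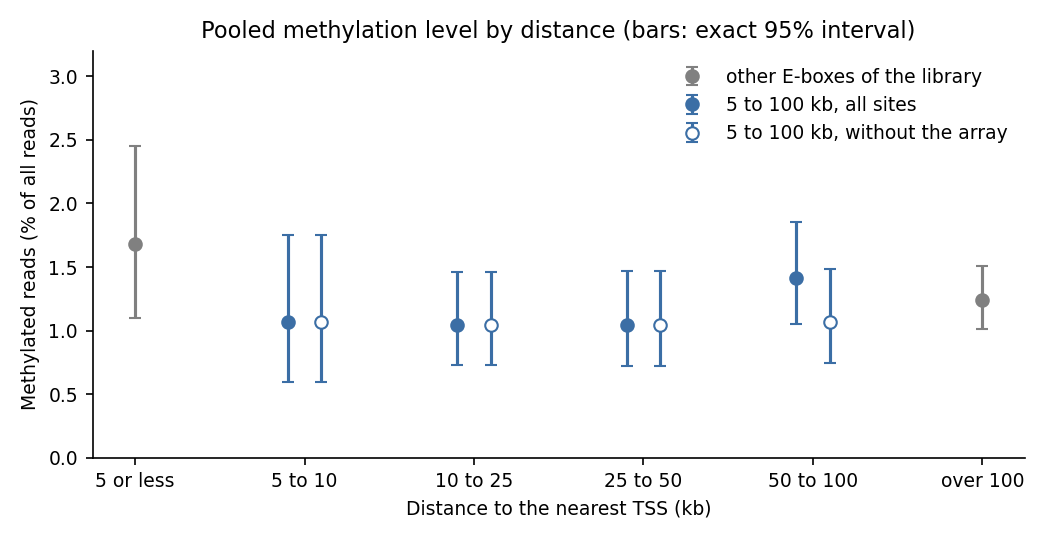
Pooled level (vertical axis, methylated reads as % of all reads) by band of distance to the nearest TSS (horizontal axis, kb), with exact 95% intervals as bars. Filled blue points are all E-boxes of the range, open points leave out the array on chromosome 7, and grey points are the nearer and farther E-boxes of the same library, at 1.68% and 1.24%. Without the array the 4 bands of the range lie between 1.05% and 1.07%.

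An array of E-boxes near the end of the long arm of chromosome 7 stood out among the members. It was chosen after the values had been seen, and is therefore described with no test. Between positions 157632393 and 157634407, a span of 2015 bp, 33 cytosines were listed, all on the minus strand and all spaced by 38 bp or a multiple of it. Of the 32 gaps between neighbours 24 were exactly 38 bp, and the widest was 304 bp. The span has room for 54 such positions, of which 21 were not listed, and 0 of the plus-strand partner cytosines were listed. The nearest gene name given for all of them was DQ583756, at 77433 to 79447 bp. Sites this close can share sequenced fragments, and copies of a repeated unit can trade reads in alignment, so the 33 sites are not 33 separate measurements.

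The array held more reads and more methylated reads per site than the other members. Its sites had 4 to 14 reads, 8.15 on average, against 4.81 for the other 2305 members. Of its 269 reads 15 were methylated, a pooled level of 5.58% (exact 95% interval 3.15 to 9.03%), against 117 of 11086 (1.06%, exact 95% interval 0.874 to 1.26%) elsewhere in the range. The mean level of its sites was 4.71% ± 7.55 (SD, n = 33 sites). With 1.41% of the members and 2.37% of their reads, it carried 11.4% of their methylated reads. The part that its repeats and its read depth played in this was not tested.

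Within the array the methylated reads sat at 11 of the 33 sites. The site at position 157633077 had 3 of 14 reads methylated, the only member with 3. Its neighbour at 157633115 had 2 of 9, and the site at 157633761 also had 2 of 9. These are 3 of the 5 members with more than 1 methylated read. The remaining 8 sites had 1 each, at depths from 6 reads, as at 157633723, to 13 reads, as at 157633799. Deep sites without any were found beside them, with 0 of 13 at 157633039 and at 157633343. No level in the array passed 22.2%, and no GR half-site was listed in the same span.

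**Figure D3:**
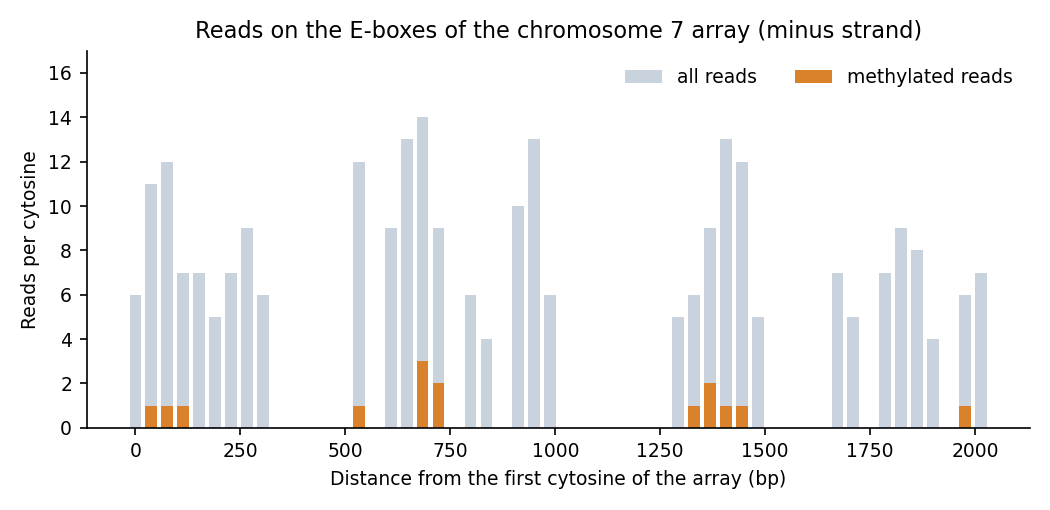
Reads per cytosine (vertical axis, counts) along the array of minus-strand E-boxes on chromosome 7, by distance from its first cytosine (horizontal axis, bp), with all reads in grey and methylated reads in orange. The 33 cytosines have 4 to 14 reads each, methylated reads are at 11 of them, and the highest orange bar is 3 of 14.

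Depth was low over the whole range, as in the rest of the library. Most members, 1305 (55.8%), had exactly the 4 reads that the authors required, against 55.7% of all E-boxes of the library. Another 559 (23.9%) had 5 reads and 244 (10.4%) had 6. The deepest had 21, and the median was 4. The pooled level stayed between 1.02% and 1.15% from 4 to 7 reads, and was 1.41% at 8 to 9 reads and 2.47% (exact 95% interval 1.19 to 4.49%) at 10 or more. A methylated read was found at 60 of 1305 sites with 4 reads (4.60%) and at 8 of 35 sites with 10 or more (22.9%). A site with more reads has more chances to show one. Of the 35 deepest sites 9 were in the array, and they held 8 of the 10 methylated reads of this class. The other 26 held 2 of 295 (0.678%, exact 95% interval 0.0822 to 2.43%). Without the array, sites with 8 to 9 reads had 5 of 585 reads methylated (0.855%).

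Sites with 10 or more reads made up 1.50% of the members, against 1.22% of all E-boxes of the library. The share was 0.602% within 5 kb and 0.951% beyond 100 kb, and neither difference passed Fisher's exact test (p = 0.311 and 0.153, adjusted p = 0.406 and 0.236).

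Against the other E-boxes of the same library, the members did not differ past the threshold in any of the shares of methylated sites. Within 5 kb, 26 of 1546 reads were methylated (1.68%, exact 95% interval 1.10 to 2.45%) and 24 of 332 sites had a methylated read (7.23%). The difference, members less nearer sites, was -1.84 points (95% interval -5.29 to 0.890, Fisher's exact p = 0.201, adjusted p = 0.285). Beyond 100 kb, 101 of 8141 reads (1.24%) and 92 of 1683 sites (5.47%) were methylated, a difference of -0.0772 points (95% interval -1.56 to 1.36, Fisher's exact p = 0.944, adjusted p = 0.944). At 25% or above, the difference was -1.57 points from the nearer sites (95% interval -4.39 to 0.465, exact p = 0.113, adjusted p = 0.236) and 0.156 points from the farther ones (95% interval -0.902 to 1.17, exact p = 0.841, adjusted p = 0.925). The intervals still leave room for a difference of several points against the 332 nearer sites.

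At 50% or above the library had 5 E-boxes, all outside the range. One lay within 5 kb, 2330 bp from DIRC1, with 2 of 4 reads methylated. The other 4 lay beyond 100 kb, where the sites nearest to LOC151760 and TPRG1 had 4 of 4 reads methylated, and those nearest to FBXO33 and BC041448 had 2 of 4. The members' share of 0 differed from that of the farther sites by -0.238 points (95% interval -0.607 to -0.00370), with p = 0.0306 in Fisher's exact test, which did not pass after adjustment (adjusted p = 0.104). Against the nearer sites the exact p was 0.124 (adjusted p = 0.236).

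The sites at the limits of the range had no methylated read, like 94.4% of all E-boxes of the library. The nearest members were those of CR598849 at 5001 bp with 0 of 6 reads, BC036695 at 5002 bp with 0 of 4 and TTC35 (now EMC2) at 5016 bp with 0 of 4. Just inside 5 kb lay the sites of SNORA35 at 4994 bp, FANCB at 4989 bp and BC068605 at 4975 bp, none with a methylated read. The farthest members were those of TRMT5 at 99998 bp with 0 of 5, PXDNL at 99932 bp with 0 of 6 and ADCY1 at 99923 bp with 0 of 4. Beyond the limit, COL25A1 at 100095 bp had 0 of 5, and VPS13B at 100130 bp and BACH2 at 100235 bp had 0 of 4 each.

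GR half-sites in the same range of distance were compared next. GR is a nuclear receptor whose response element holds AGAACA and, on the other side, its reverse complement TGTTCT, and the counted cytosine is the fifth base of either. Factor, motif, treatment and library all change at once here and cannot be told apart. The GR anti-Flag library listed 683 AGAACA sites in the range, with 146 of 2985 reads methylated (4.89%), and 4049 TGTTCT sites, with 452 of 18486 (2.45%). Both pooled levels were above the 1.16% of the E-boxes. They weight sites by their reads, which reached 76 at an AGAACA site and 498 at a TGTTCT site. The mean level over sites was 2.04% ± 12.3 (SD, n = 683 sites) for AGAACA and 1.52% ± 10.3 (SD, n = 4049 sites) for TGTTCT, against 1.13% for the E-boxes.

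The direction of the comparison turned with the threshold. A methylated read was seen at 5.39% of the E-boxes and at 120 of 4049 TGTTCT sites (2.96%), a difference of 2.43 points (95% interval 1.38 to 3.54, Fisher's exact p = 2.00e-06, adjusted p = 1.13e-05). Against AGAACA, with 26 of 683 (3.81%), it was 1.58 points (95% interval -0.351 to 3.22, exact p = 0.111, adjusted p = 0.236). At 25% or above the E-boxes differed from TGTTCT by 0.0833 points (95% interval -0.730 to 0.953, exact p = 0.870, adjusted p = 0.925) and from AGAACA by -0.569 points (95% interval -2.30 to 0.831, exact p = 0.428, adjusted p = 0.520). At 50% or above, 12 AGAACA sites (1.76%) and 60 TGTTCT sites (1.48%) stood against 0 E-boxes. These differences were -1.76 points (95% interval -3.05 to -0.896, Fisher's exact p = 1.65e-08, adjusted p = 1.41e-07) and -1.48 points (95% interval -1.90 to -1.10, exact p = 1.97e-12, adjusted p = 3.34e-11). They were as large without the array, since no array site reached 50%.

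The differences below 50% depended on depth. Sites with exactly 4 reads made up 80.2% of the TGTTCT sites and 55.8% of the E-boxes. With at least 5 reads, 66 of 1033 E-boxes (6.39%) stood against 49 of 800 TGTTCT sites (6.12%), a difference of 0.264 points (Fisher's exact p = 0.846). At exactly 4 reads the difference was 2.41 points (adjusted p = 1.53e-04 in Fisher's exact test). At 25% or above the difference from TGTTCT turned with depth, from -3.93 points with at least 5 reads (adjusted p = 1.47e-09 in Fisher's exact test) to 2.41 points at exactly 4 reads, where 25% is any methylated read. From AGAACA it was -5.41 points with at least 5 reads (adjusted p = 1.75e-05 in Fisher's exact test) and 1.91 points at exactly 4 (adjusted p = 0.117). At 50% or above, the E-boxes remained below both GR motifs at each of these depths.

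**Figure D4:**
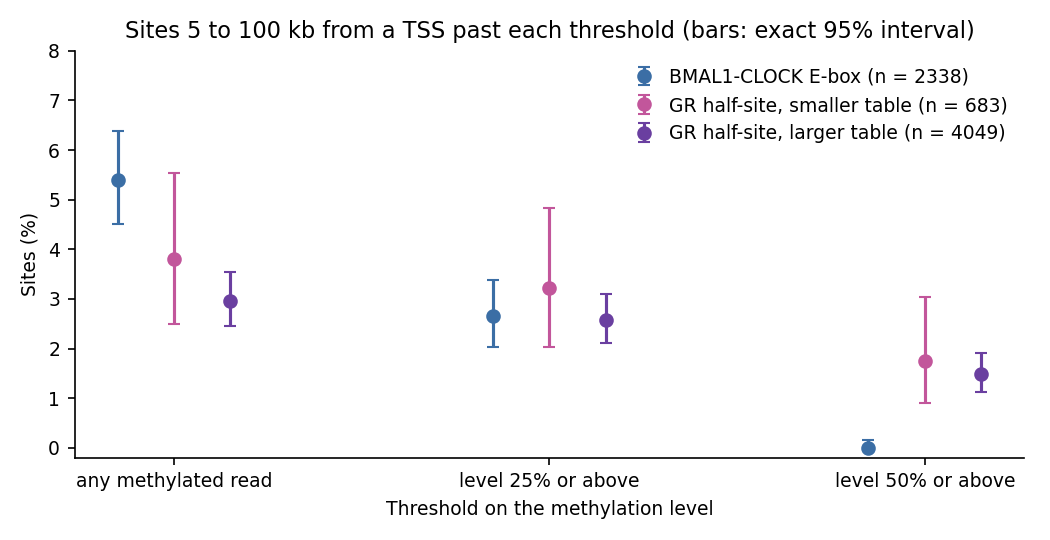
Share of sites in the range (vertical axis, %) past 3 thresholds of the methylation level (horizontal axis), for BMAL1-CLOCK E-boxes and for GR half-sites of the AGAACA table (683 sites) and the TGTTCT table (4049 sites), with exact 95% intervals as bars. The E-boxes lie highest at any methylated read (5.39%) and at 0 for levels of 50% or above.

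The IgG controls gave no background value for the E-boxes of the range. The BMAL1-CLOCK IgG table listed 2 cytosines, both of 1 E-box at RMRP on chromosome 9, at 103 and 98 bp from the TSS, with 40 of 40 and 124 of 124 reads methylated. None lay in the range, so its E-boxes had no IgG value to be set beside theirs. In the GR IgG library 336 of 1093 AGAACA sites in the range (30.7%) and 59 of 312 TGTTCT sites (18.9%) had a methylated read, and 33 (3.02%) and 5 (1.60%) were at 50% or above. The corresponding shares of the GR anti-Flag library, 1.76% and 1.48%, were not above those of its own control. Nothing in the tables shows independently which GR library came from which antibody, so every GR value rests on the labels as given. What these IgG levels mean for the GR values was not tested.

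Both strands of an E-box were rarely listed together. The 2338 cytosines came from 2312 E-boxes, of which 26 (1.12%) had both cytosines in the table, with 8 to 16 reads over the pair and a median of 9. Pairs were few outside the range too, where the 1683 cytosines beyond 100 kb came from 1656 E-boxes and the 332 within 5 kb from 324. Methylated reads were seen on both strands at 2 of them, on the plus strand alone at 2, on the minus strand alone at 0, and on neither at 22. The first was the E-box 12727 bp from the TSS of TXNDC5, a gene of the protein disulfide isomerase family, with 1 of 4 reads on the plus strand (chromosome 6, position 7842582) and 1 of 4 on the minus strand (position 7842587). The second was nearest to the olfactory receptor pseudogene OR7E156P, 66937 bp away, with 1 of 6 on the plus strand (chromosome 13, position 63142631) and 1 of 4 on the minus strand (position 63142636). The E-boxes methylated on the plus strand alone were those of SSBP2, the gene of a single-stranded DNA-binding protein, and of PCDHB1, a protocadherin, each with 1 of 5 reads against 0 of 4.

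A methylated plus strand thus went with a methylated minus strand in 2 of 4 E-boxes, and an unmethylated one in 0 of 22. Fisher's exact test gave p = 0.0185, which did not pass after adjustment (adjusted p = 0.0785). The comparison rests on 2 E-boxes. Of the 52 cytosines in such pairs 6 had a methylated read (11.5%), against 120 of 2286 (5.25%) with 1 strand listed, a difference that was not tested.

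By strand, 54 of 1154 plus-strand members (4.68%) and 72 of 1184 minus-strand members (6.08%) had a methylated read, a difference of -1.40 points (95% interval -3.30 to 0.491, Fisher's exact p = 0.143, adjusted p = 0.236). The array lay wholly on the minus strand. Without it the pooled level was 1.11% on the minus strand and 0.995% on the plus strand, and the exact p for the share was 0.505.

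All chromosomes from 1 to 22 and X held members, and 4 members lay on unplaced sequence assigned to chromosomes 7, 13 and 21. Chromosome 1 had the most, with 333. By share of sites with a methylated read, chromosome 16 came first with 4 of 38 (10.5%), followed by chromosome 7 with 19 of 190 (10%) and chromosome 5 with 10 of 107 (9.35%). Chromosome 1 had 9 of 333 (2.70%), and chromosomes 18, 19, 21 and 22 had 0 of 35, 0 of 26, 0 of 29 and 0 of 28. No chromosome differed from the rest of the members after adjustment over the 23 tested. The smallest p values in Fisher's exact test were 0.00656 for chromosome 7 (adjusted p = 0.151) and 0.0177 for chromosome 1 (adjusted p = 0.204). Without the array chromosome 7 had 8 of 157 (5.10%), and its exact p was 0.851.

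**Figure D5:**
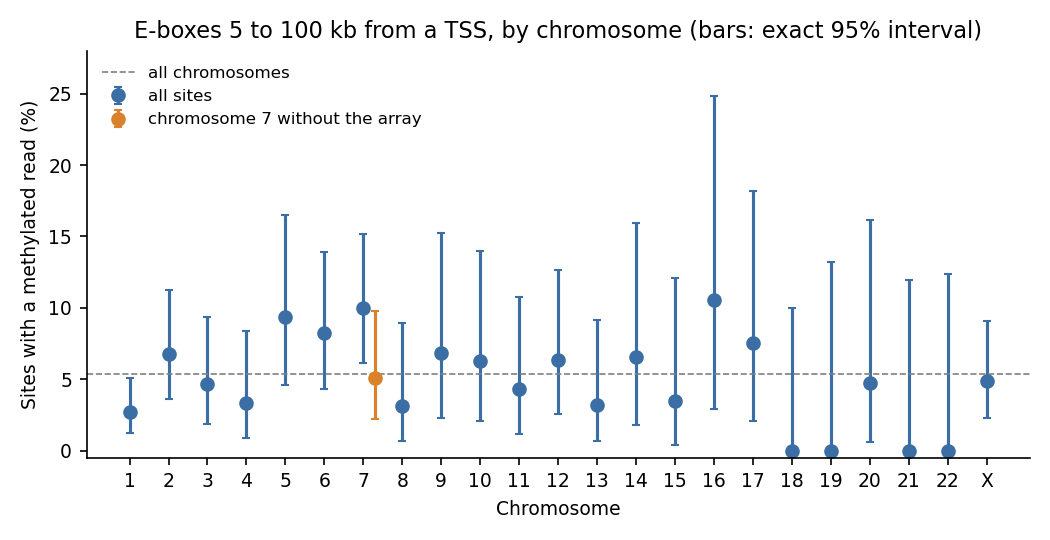
Share of members with a methylated read (vertical axis, %) on each chromosome (horizontal axis), with exact 95% intervals as bars and the share over all members, 5.39%, as a dashed line. The orange point gives chromosome 7 without the array, at 5.10% in place of 10%, and the intervals of the small chromosomes are wide.

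Where the members lay differed from where the E-boxes beyond 100 kb lay. Both groups were defined by distance to the nearest TSS, which itself depends on how genes are spread over a chromosome. The tests of these shares therefore cannot show a trait of the members apart from that split. No count of all E-boxes of the genome by chromosome was used. On 10 of 23 chromosomes the share of all sites differed past the threshold, with the members' share larger on 7 and smaller on 3. Chromosome 13 held 93 members (3.98%) but 170 of the farther sites (10.1%), with an adjusted p of 3.62e-13 in Fisher's exact test over 23 chromosomes, a comparison added after the data had been seen. Chromosome 5 likewise held 4.58% of the members and 7.96% of the farther sites (adjusted p = 1.25e-04 in Fisher's exact test). The third with a smaller share was chromosome 4. The members' share was the larger on chromosomes 1, 7, 12, 15, 17, 19 and 22. Chromosome 19 held 26 members against 3 farther sites, and chromosome 15 held 57 against 16 (adjusted p = 0.00203 in Fisher's exact test for both). On chromosome 7 it was 8.13% against 5.05% (Fisher's exact adjusted p = 0.00105), but without the array 6.81%, which no longer passed (exact adjusted p = 0.0515). How far the density of genes on each chromosome, which sets the distance to the nearest TSS, entered these shares was not tested.

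The members were nearest to 1995 different gene names, most of them once. 1 site was found for 1747 names, 2 for 204, 3 for 29, 4 for 9 and 5 or more for 6. Of the names, 113 had at least 1 site with a methylated read, and 4 had 2 or more such sites. These 4 were DQ583756 with the array, OR7E156P and TXNDC5 with the E-boxes described above, and AK057451 on chromosome 9, with 2 methylated of 13 reads over its 2 sites.

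The genes with the most members after DQ583756 are given with the reads over all of their sites. DMD, the gene of dystrophin, had 6 sites with 0 of 25 reads methylated. ESRRG, which encodes an estrogen-related nuclear receptor, had 6 sites with 1 of 29. Next came INADL (now PATJ), a tight-junction scaffold gene, with 0 of 29 over 5 sites, PDE4B, a cAMP phosphodiesterase gene, with 0 of 26, and SPRY2, the gene of an inhibitor of receptor tyrosine kinase signalling, with 0 of 34. A tie of 9 genes with 4 sites followed, of which the first in alphabetical order are given: BC041441, GPC6 and HDAC9 had 0 of 21 reads methylated each and GTF2B had 0 of 16. Among these 10 genes methylated reads were found at DQ583756 and ESRRG only.

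No methylated read was seen near a clock gene. Of 35 listed clock genes 4 had members, with 5 sites and a methylated read in 0 of 21, a count that leaves room for a level of 14.3%. Among them was CRY1, the gene of a repressor of BMAL1-CLOCK, at 15262 bp with 0 of 4. RORA, which encodes a nuclear receptor that activates the BMAL1 gene, had 0 of 4 at 5599 bp. FBXW11, an F-box gene, had 0 of 4 at 93331 bp and 0 of 5 at 70075 bp. By the background of 5.56% of E-boxes with a methylated read, 5 sites are too few to tell a lower share from the same one.

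Genes of other basic helix-loop-helix factors and of DNA methylation were as thinly covered. From a list of 51 basic helix-loop-helix genes, MITF had 0 of 5 reads methylated at 41392 bp, the dioxin receptor gene AHR 0 of 5 at 32954 bp and TFEC 0 of 7 at 36359 bp. From 20 genes that write, erase or read cytosine methylation, TET2, whose product oxidises methylcytosine, had 0 of 5 at 34320 bp and 0 of 4 at 21489 bp. No other listed gene had a member.

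Of 6 gene families taken by the start of their symbol, 5 had members, with methylated reads at 1 to 4 sites each. No E-box of the whole library had the name of a microRNA gene (MIR), so the 0 sites in the range say nothing about that family. For comparison, a methylated read was found at 5.39% of all members and 5.56% of all E-boxes of the library. Zinc finger genes (ZNF) had 31 sites, of which 2 had a methylated read (6.45%), with 1 of 7 near ZNF117 and 1 of 10 near ZNF92. Solute carriers (SLC) had 22 sites, of which 4 had one (18.2%), near the choline transporter SLC5A7 with 1 of 6, the mitochondrial carrier SLC25A13 with 1 of 5, and the amino acid transporters SLC7A2 and SLC6A14 with 1 of 4 each. Olfactory receptors (OR) had 19 sites and 3 with a methylated read, of which 2 were the strands of 1 E-box at OR7E156P and the other, with 1 of 5, was near OR2A25. Cadherins and protocadherins had 12 sites with 1, at PCDHB1, and potassium channels (KCN) had 12 sites with 1, near KCNT2 with 1 of 5. All these counts are of single methylated reads, and the families were not tested.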

How the data were processed

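Bisulfite-converted DNA from chromatin immunoprecipitates of HEK-293T cells was sequenced in 4 libraries (anti-Flag and IgG for GR and for BMAL1-CLOCK). Per the submitters' processing notes and the study's methods, the authors aligned reads to hg18 with Bismark and removed duplicates with SAMtools, of versions not given in the sources used here, and listed cytosines with at least 4 reads. The deposited tables hold raw counts, not normalized, of the methylated reads and the total reads at each cytosine, with the nearest gene and its unsigned distance. Incomplete conversion reads as methylation, and no conversion rate was used here.

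The level was computed as methylated over all reads. Repeated rows of a site were dropped from the GR tables, and the E-box table had 0. The read minimum limits a single level to steps of 25% at most sites. Shares have exact Clopper-Pearson 95% intervals, differences combine these bounds by Newcombe's method, and a share of 0 has a limit of 3 counts. Fisher's exact test, two-sided, was adjusted by Benjamini-Hochberg over 17 share comparisons, of which the 4 with GR below 50% were added later, and over 23 chromosomes. A one-sided exact binomial test was run at each of the 4353 E-boxes. Sites were treated as independent, although neighbours can share fragments.

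Sites were named by rule: the 10 deepest members, the 10 with the highest level, those with 3 or more methylated reads, E-boxes methylated on both strands, clock genes, the 3 at either side of each distance limit, and the 10 genes with the most members. Some sites that this rule names are not reported here. The members, lists and tests were chosen with earlier results of these data known, and sites outside this rule and the array were named after their values were seen. Of 1995 gene names 1309 matched a current RefSeq symbol, 231 a synonym and 455 neither. Alternatives changed the read minimum, the depth class, the distance limits and the counting of strands and neighbours. Those without the array were added after seeing the data. The binomial test and the comparison with E-boxes beyond 100 kb were checked on simulated data with sites drawn independently. Such data do not show how the tests behave where neighbours share fragments. The software was Python 3.11.15 with scipy 1.17.1 and pandas 2.3.3.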

Additional observations from a re-analysis of the deposited data

How the results depend on the processing

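Of 166 alternative values 133 counted as unchanged, and 8 became 0 where both shares were equal. Another 19 turned in direction, and of the rest 5 newly passed the threshold and 1 lost it. For shares, unchanged means that the direction and the side of the threshold were kept. The mean level counted as unchanged within the exact interval of the pooled level, and the number of single sites that passed if it stayed the same. Those that turned were not counted by threshold, although some newly passed it in the new direction. The share at 25% or above against TGTTCT with at least 5 reads was one of them. Most of these changes came with a change of read depth. Unless other groups are named, differences are E-boxes of 5 to 100 kb less the other group, in percentage points, by Fisher's exact test. Between distances within the range they are sites up to 50 kb less those beyond, and between strands plus less minus. With at least 5 reads, the difference in any methylated read was -2.41 against AGAACA and, no longer past the threshold, 0.264 against TGTTCT, and at 25% or above it was -5.41 and -3.93 (adjusted exact p = 1.75e-05 and 1.47e-09). With at least 8 reads, any methylated read gave 7.80 against the farther E-boxes, -36.5 against AGAACA and -30.9 against TGTTCT, and 25% or above gave -1.43, -50.0 and -36.1. Sites up to 50 kb then differed from those beyond by -20.4 (adjusted p = 0.00963), but by -5.31 without the array (exact p = 0.397). With at least 8 reads and no array, the 6 values before that were 1.58, -42.7, -37.2, -1.43, -50.0 and -36.1. At exactly 4 reads, the differences were 0.131 against the farther E-boxes, 0.0216 between sites up to 50 kb and beyond and 0.106 between strands, and 1.91 and 2.41 at 25% or above against AGAACA and TGTTCT. With 1 site per E-box, the share with 10 or more reads differed from the farther sites by -0.0554. With an upper limit of 50 kb, E-boxes of 5 to 50 kb differed in that share by -0.267 from all those beyond 50 kb. Their share at 25% or above then differed by -0.0127 from that of TGTTCT sites of 5 to 50 kb. The lower share at 50% or above against both GR motifs passed the threshold in every setting run. The mean level of 1.13% became 1.16% weighted by reads and 1.08% without the array. With 111 members at 8 or more reads and 6 AGAACA sites, the values at that depth are coarse. No paired analysis was possible because each group is 1 library with no replicate number.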
